A study of Mus musculus with 12 samples.

Results

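Rbm3 and Cirbp encode the cold-inducible RNA-binding proteins of mammals, and they are 2 of the 10607 genes in a table of liver ribosome profiling from Mettl5 knockout (KO) and wild-type (WT) mice. Both were taken by gene name. Rbm3 was chosen by its measured change in translation efficiency (TE, the ribosome-protected fragment value divided by the input value of the same mouse), whose p-value had rank 2 of 8994 genes with enough reads. The input, ribosome-protected fragment (RPF) and TE differences of Rbm3 between the genotypes are therefore given as descriptions without a test. Cirbp was taken as its closest relative in function, and its differences were tested over all genes.

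The livers of 3 WT and 3 KO mice were profiled, and each liver gave an input and an RPF library. The mice were treated as 3 litters with 1 mouse of each genotype, paired by the same number in the sample titles. The paper names littermate controls without listing which mice form a pair. METTL5 methylates a single adenosine of the small ribosomal subunit's rRNA. The KO mice carried a floxed Mettl5 exon 2 that had been deleted in the whole body by crossing to B6.C-Tg(CMV-cre)1Cgn/J, from ES cells of a C57bl/6 x 129S6 hybrid and with backcrossing to B6. All lysates, WT and KO, were made in cycloheximide. The study used mice of both sexes from juvenile to adult age, and the age of these 6 animals is not stated. Reads of the Y-linked Ddx3y (261 to 728 counts) and no read of Xist were found in every input library, a point that concerns Rbm3 because it lies on the X chromosome.

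RBM3 and CIRBP each consist of an RNA recognition motif followed by a tail rich in arginine and glycine. Their transcripts rise when cells are mildly cooled and fall when cells are warmed, the opposite of the heat shock proteins. In liver, Cirbp also follows the daily rhythm of body temperature, and both proteins bind mRNAs, including that of the clock factor CLOCK.

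In mm10, Rbm3 (ENSMUSG00000031167) covers X:8138975-8145880 on the minus strand with a coding sequence of 462 nt in 5 coding exons (Rbm3-201). Cirbp (ENSMUSG00000045193) covers 10:80165985-80172786 on the plus strand with a coding sequence of 516 nt in 6 coding exons (Cirbp-202). The first 240 coding bases, which hold most of the RNA recognition motif, are shown because they carry both the kinship of the genes and the measurement limit of Rbm3. Between the genes 171 of these 240 bases are the same (71.2%). In the Rbm3 line the capitals mark the bases covered by the only 28-nt stretches of the coding sequence that occur nowhere else in the genome, and in the Cirbp line the bases that differ from Rbm3.
Rbm3: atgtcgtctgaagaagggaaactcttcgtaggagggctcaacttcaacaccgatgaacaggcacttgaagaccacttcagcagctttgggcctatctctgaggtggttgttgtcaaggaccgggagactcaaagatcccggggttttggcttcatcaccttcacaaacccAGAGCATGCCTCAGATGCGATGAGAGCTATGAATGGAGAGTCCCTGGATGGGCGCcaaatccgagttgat
Cirbp: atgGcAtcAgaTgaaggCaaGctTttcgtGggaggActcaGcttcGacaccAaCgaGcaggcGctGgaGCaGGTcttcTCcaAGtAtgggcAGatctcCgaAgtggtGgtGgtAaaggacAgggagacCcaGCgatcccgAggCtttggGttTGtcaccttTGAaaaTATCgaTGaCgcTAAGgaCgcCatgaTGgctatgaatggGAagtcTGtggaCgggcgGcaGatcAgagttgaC

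The coding sequence of Rbm3 is copied almost whole into processed pseudogenes, which are intronless copies of an mRNA inserted elsewhere in the genome. Of its 435 possible 28-nt windows, about the length of a ribosome footprint, 407 (93.6%) match another place in mm10 exactly. The remaining 28 windows all cover coding base 198, counted from 1 at the A of the start codon, and each of them has another genome match with 1 mismatch. For Cirbp, 0 of 489 windows match elsewhere.

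The nearest copy of Rbm3 is Rbm3-ps at 1:150265538-150265999, which matches 378 windows and differs over the coding sequence by T198C, T315C and G316A. The bases around coding position 198 are shown since this single base separates the gene from the copy there, and it stands in capitals.
Rbm3: gatgcgatgagagcTatgaatggagagtcc
Rbm3-ps: gatgcgatgagagcCatgaatggagagtcc
Further copies are Gm10156 at 7:107863039-107863497 with 314 windows, Gm48583 inside Dapk1 at 13:60641787-60642009 with 171 windows, and Gm2021 at 7:39662671-39662703 with 6 windows. One more, Gm13624 at 2:69799154-69799534, holds 154 windows, overlaps Phospho2 on the opposite strand and lies 71664 bp from Mettl5. None of these pseudogenes has more than 6 input counts summed over the 6 mice, against the 127 reads of Rbm3 itself. The authors kept only uniquely mapped input reads, so reads that fit the gene and a copy equally are missing from both. These counts therefore cannot show whether the copies are transcribed.

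**Figure D1:**
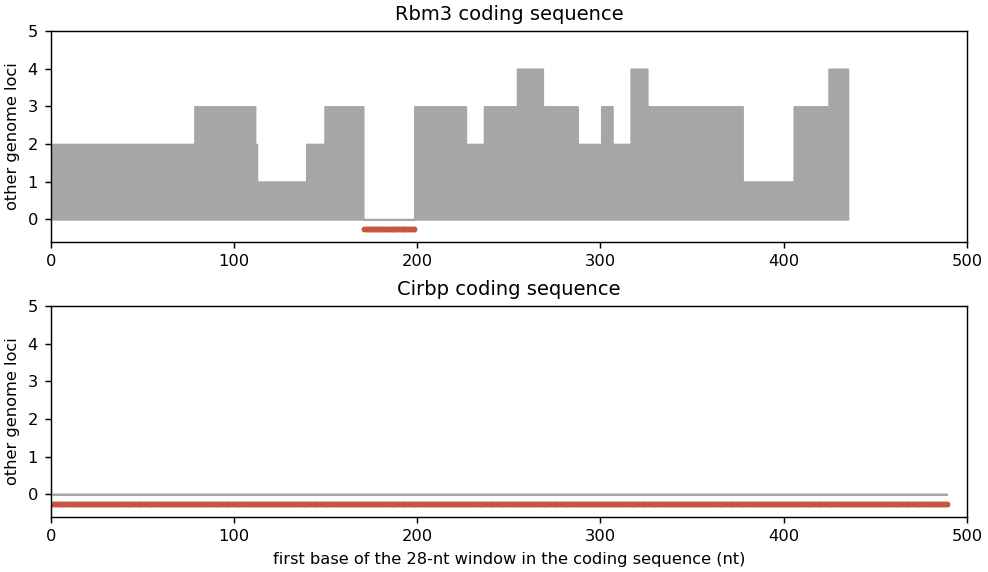
Number of other mm10 loci (y axis) that match each 28-nt window exactly, by the window's first base in the coding sequence (x axis, nt), for Rbm3 and Cirbp; red marks windows found at no other locus. Only windows starting at bases 171 to 198 of Rbm3 are free of an exact copy, while every Cirbp window is.

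The assays meet these copies differently. Over the whole 2792-nt transcript, from which input reads come, 20.7% of 28-nt windows and 16.9% of 50-nt windows match elsewhere, since the untranslated parts hold few copied windows. RPF reads come mostly from the coding sequence, and they were mapped with up to 2 mismatches and kept only when they mapped to 1 place. Among 8978 tested genes with a coding sequence, 6105 (68%) have no copied window and 53 (0.59%) have at least 90% of windows copied. Rbm3 stands at the 99.7th percentile of this measure. RPF reads of Rbm3 can therefore come from any of these loci or be lost, and how far this moves its RPF value was not tested. The copies were read from the reference genome, not from these mice.

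Genes copied to this extent had lower footprint values for their input. In WT, the ratio of RPF per kb of coding sequence to input per kb of exon had a median of 1.40 (quartiles 0.502 and 3.36) in the 53 copied genes and of 3.27 (quartiles 1.93 and 5.57) in the 6105 genes without copies. Rbm3 was not among the low ones in WT, with a ratio of 12.1 (94th percentile of all genes), and had 1.51 (16.5th percentile) in KO. The exon length joins all annotated exons of a gene, for Rbm3 those of 11 transcripts, 2 of them with a retained intron. Against 462 coding nt this length raises the ratio of Rbm3 in both genotypes, from an unscaled WT TE of 1.19. Its percentiles therefore depend on the annotation as well as on the reads. The TE change between genotypes spread from -0.41 to 0.24 between quartiles on the log2 scale in the copied genes and from -0.21 to 0.23 in the others.

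Facts of the whole series bear on both genes. Input libraries held 8326325 to 11825643 counts, and over the genes of the table there were 2398804 to 5121304 input reads and 4623826 to 9184242 RPF reads per library. Mettl5 input counts were 21, 18 and 12 in WT and 13, 7 and 5 in KO, and the deleted exon cannot be seen apart from the rest of the gene in these counts. With edgeR's quasi-likelihood test, 0 of 10057 genes passed an adjusted p of 0.05 in input (0%), where 348 had an unadjusted p under 0.05 and DESeq2 called 1. In RPF, limma called 44 of 8994 genes (0.489%), and in TE it called 0 (0%), with 423 at an unadjusted p under 0.05 and 0 calls by edgeR on whole reads. Hepatocyte markers led each liver, with 17620 to 36500 CPM (input counts scaled to the library total) for 6 genes, and 0 of the tested markers of any liver cell type were called. KO mouse 1 had the highest CPM of several marker sets, but the share of its counts on genes of the table was also higher, as 1 of its input reads is worth 0.658 normalized reads against 1.31 to 1.83 in WT. On the scale of the table its 1060 normalized reads of Kupffer cell markers lie within the 820.7 to 1280 of the WT mice. Summed stellate cell markers were 1249 to 1358 in KO and 968.8 to 1207 in WT, and erythroid markers 539.6 to 606.5 in KO and 625.4 to 810.1 in WT. On this scale the stellate and erythroid sums do not overlap between genotypes, while those of hepatocytes, Kupffer cells, endothelial cells, lymphocytes and cholangiocytes do. In CPM both sets overlap, with stellate markers at 71.9 to 81.9 in WT and 72.5 to 174.6 in KO. Erythroid markers had 37.3 to 63.2 CPM in WT and 35.1 to 78.0 in KO. The share of all genes with such an order in input was not computed, so the separation is not read as a difference in cells. Any part of these cells in the values of Rbm3 and Cirbp was not tested.

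Rbm3 footprints were fewer in every KO liver than in any WT liver, while its transcript was not. The values are reads scaled by the authors to the library, and the whole reads behind them are few. In input, the WT mice of litters 1, 2 and 3 had 29.4, 21.9 and 7.87 normalized reads from 16, 14 and 6 whole reads. The KO littermates had 40.8, 23.9 and 17.6 normalized reads from 62, 18 and 11 whole reads. The groups overlap, with means of 19.7 ± 10.9 in WT and 27.4 ± 12.0 in KO (SD, n = 3 each), and the KO mouse was the higher one in 3 of 3 litters. The input difference in the edgeR fit to counts was 0.63 on the log2 scale with an SE of 0.46. It rested on 2 mice, being 0.15 without KO mouse 1 and 0.21 without WT mouse 3. In whole liver, a difference in the number of cells of a type and one in RNA per cell cannot be told apart.

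In RPF, the WT mice of litters 1, 2 and 3 had 22.7, 17.9 and 15.5 normalized Rbm3 reads, from 26, 21 and 30 whole reads. The KO mice had 2.09, 5.53 and 2.87 normalized reads, from 3, 9 and 3 whole reads. Every KO value lies under every WT value, an order that 12.9% of all genes tested also show. Exact Poisson intervals (95%, counting error only) run from 13.0 to 42.8 whole reads over the 3 WT libraries and from 0.619 to 17.1 over the 3 KO libraries. Summed over mice, 77 reads were seen in WT and 15 in KO. The WT mean of 18.7 ± 3.65 was 5.35 times the KO mean of 3.50 ± 1.81 (SD, n = 3 each).

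The fitted RPF difference of Rbm3 was -2.19 (SE 0.48) on the log2(value + 1) scale. Within litters the log2 ratio of KO to WT was -3.44, -1.70 and -2.43, and litter 2 had the smallest difference. Leaving out any single mouse kept the fitted difference between -2.49 and -1.95. With 3 reads in each of 2 KO libraries, the size of the fold is set by very few molecules.

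**Figure D2:**
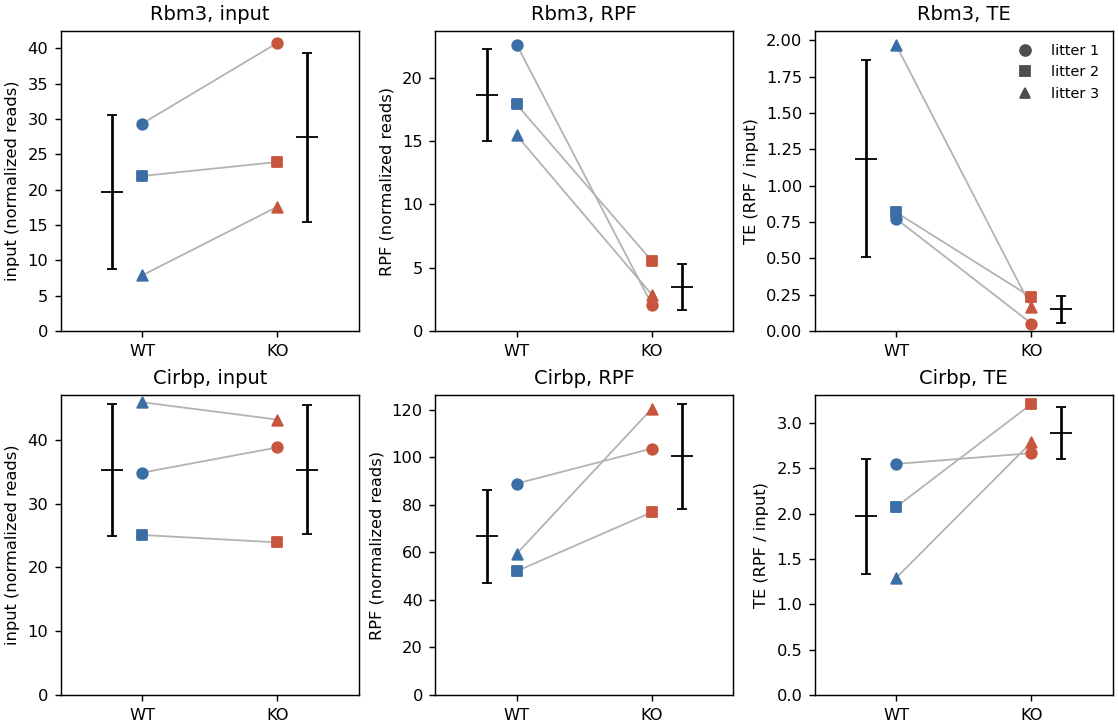
Input (normalized reads), RPF (normalized reads) and TE (RPF divided by input) of Rbm3 (top) and Cirbp (bottom) in each WT and KO liver; markers show the litter, grey lines join littermates and black bars are the mean ± SD of 3 mice. Rbm3 RPF was 15.5 to 22.7 in WT and 2.09 to 5.53 in KO, and Cirbp TE was 1.29 to 2.55 in WT and 2.67 to 3.21 in KO.

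The TE of Rbm3, the value it was chosen by, joins both readouts. It was 0.772, 0.817 and 1.97 in the WT mice and 0.0511, 0.231 and 0.163 in the KO mice. The groups do not overlap, as is the case in this direction for 7.34% of all genes. The WT mean was 1.19 ± 0.677 and the KO mean 0.149 ± 0.0909 (SD, n = 3 each), 7.98 times apart. The high WT value in litter 3 goes with its 6 input reads, and the lowest KO value, in litter 1, goes with 3 RPF reads. The fitted TE difference was -2.74 (SE 0.68) on the log2 scale, of which -2.19 came from RPF and the rest from input. That input part belongs to the same limma fit and is not the 0.63 of the edgeR fit to input counts.

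Cirbp input had nearly equal means in both genotypes. WT mice had 34.9, 25.1 and 45.9 normalized reads from 19, 16 and 35 whole reads, and KO mice 38.8, 23.9 and 43.2 from 59, 18 and 27. The means were 35.3 ± 10.4 in WT and 35.3 ± 10.1 in KO (SD, n = 3 each). The fitted difference was 0.02 on the log2 scale (SE 0.32, adjusted p = 0.999, edgeR quasi-likelihood test). An interval of 2 SE on either side reaches from -0.62 to 0.67, so a change of up to about this size in either direction remains possible.

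Cirbp RPF was higher in the KO mouse of 3 of 3 litters, but the difference did not pass the test. WT mice had 88.9, 52.0 and 59.3 normalized reads from 102, 61 and 115 whole reads. KO mice had 103.6, 76.8 and 120.4 from 149, 125 and 126. The groups overlap, since KO mouse 2 lies below WT mouse 1. The KO mean of 100.3 ± 22.0 was 1.50 times the WT mean of 66.7 ± 19.5 (SD, n = 3 each), and the fitted difference was 0.59 on the log2 scale (SE 0.29, unadjusted p = 0.0512, adjusted p = 0.375, limma). Adjusted p was 0.162 with the litter as a replicate block, and between 0.0725 and 0.795 over all alternatives tried.

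The TE of Cirbp differed in the opposite direction to that of Rbm3, without passing the test. It was 2.55, 2.08 and 1.29 in the WT mice and 2.67, 3.21 and 2.79 in the KO mice, so that every KO value lies above every WT value. In this direction 6.09% of all genes tested show such an order. The means were 1.97 ± 0.635 in WT and 2.89 ± 0.285 in KO (SD, n = 3 each), and the fitted difference of 0.59 (SE 0.40, 2 SE from -0.21 to 1.40) had an adjusted p of 0.998 with limma. The smallest gap, between WT mouse 1 and KO mouse 1, is 2.55 against 2.67, which the counts behind these values cannot separate.

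**Figure D3:**
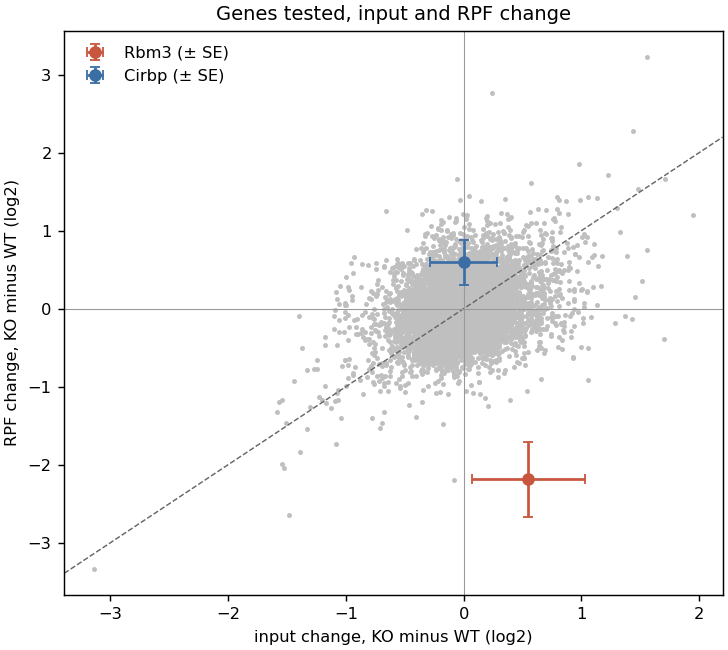
RPF change (y axis) against input change (x axis), KO minus WT, both as log2(value + 1) fits, for the 8994 genes tested (grey), Rbm3 (red) and Cirbp (blue) with SE bars; the dashed line marks equal change. Rbm3 lies far below the line at an RPF change of -2.19, and Cirbp lies above it at 0.59 with an input change near 0.

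Per unit of length the order of the genes was the same in both assays. Input per kb of exon, with all annotated exons of a gene joined, was 4.20 for Rbm3 and 13.6 for Cirbp in WT. These are percentiles 9.72 and 41.7 of all genes, against a median of 17.3. RPF per kb of coding sequence was 40.4 for Rbm3 (42.9th percentile) and 129.3 for Cirbp (71st percentile) in WT. In KO it was 7.57 for Rbm3 (5.77th percentile) and 194.3 for Cirbp (78.5th percentile). In KO input, Rbm3 stood at percentile 16.2 and Cirbp at percentile 42.2.

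The litters differed in Cirbp, a pattern noticed after the values were seen. In input and in RPF, and in both genotypes, litter 2 had the lowest Cirbp of the 3 litters, which holds for 236 of 8994 genes (2.62%). Relative to the mean of 6 libraries, the log2 level of Cirbp input was -0.44 in the WT and -0.50 in the KO mouse of litter 2. Rbm3 input did not share this order, being highest in litter 1 and lowest in litter 3 in both genotypes.

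Many heat shock genes were highest in that same litter. Of 18 measured heat shock genes, 14 (77.8%) were highest in litter 2 in the input of both genotypes, against 13.7% of all genes, and 9 of the 18 were so in both assays, against 3.4% of all genes. Hsph1, a chaperone of the HSP110 family, had 271.5, 501.5 and 358 normalized input reads in the WT mice and 228.9, 574.2 and 239.9 in the KO mice. Dnajb1, an HSP40 cochaperone, had 88.1, 137.9 and 110.1 in WT and 67.8, 128.9 and 75.2 in KO. Litter 2 is the highest for both genes in each genotype.

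The 15 measured clock genes went both ways. In the input of both genotypes 5 were highest in litter 2 and 3 were lowest there, 2 of these in both assays. Per2, a clock repressor also induced by heat shock factor, was among the 5. Its input was 22.0, 50.2 and 18.4 normalized reads in WT and 9.21, 55.8 and 11.2 in KO. Nfil3, the most abundant clock gene, was lowest in litter 2, with 155.9, 87.8 and 212.4 in WT and 170.4, 160.8 and 223.9 in KO. Genes highest in litter 2 were 2 of 17 for SR splicing factors and CLK kinases, 0 of 26 for other proteins with RNA recognition motifs and 0 of 6 for reported target transcripts. The hour and the body temperature at which each litter was taken are not given in the labels, and what sets litter 2 apart was not tested.

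**Figure D4:**
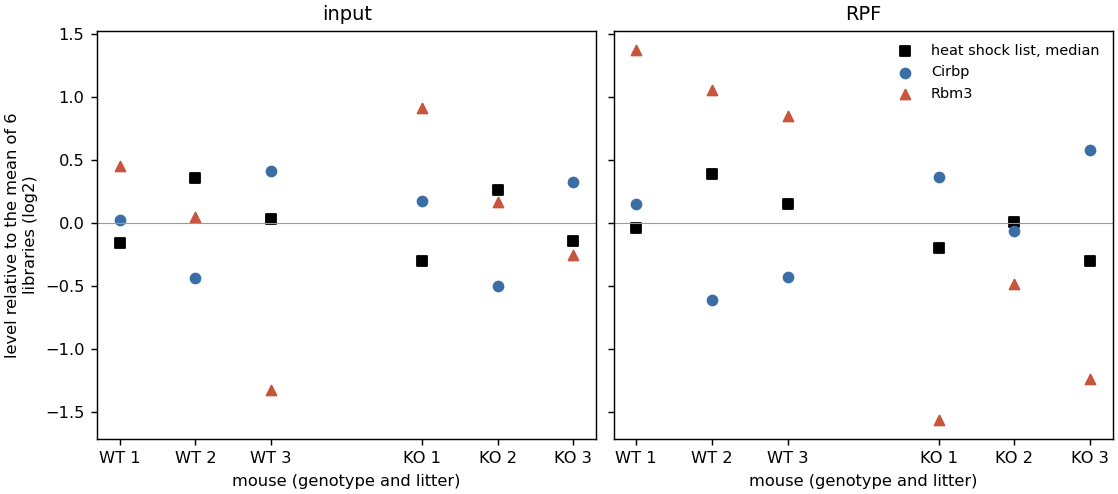
Level relative to the mean of the 6 libraries of the assay (y axis, log2) in each mouse (x axis) for Cirbp, Rbm3 and the median of 18 heat shock genes, in input (left) and RPF (right). In input the heat shock median is 0.35 and 0.26 in WT 2 and KO 2, where Cirbp is -0.44 and -0.50. In RPF the heat shock median is 0.39 and 0.01 in WT 2 and KO 2, where Cirbp is -0.61 and -0.06, so the contrast is small in KO 2.

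Between genotypes, none of the lists around the cold-inducible proteins held a called gene, in input, RPF or TE, where 0%, 0.489% and 0% of all genes were called, so that 0 calls in lists of 6 to 29 tested genes sets them apart from no other list. Of the 18 heat shock genes, 15 had a lower and 3 a higher fitted RPF value in KO, with a median of -0.41 on the log2 scale against -0.03 for all genes, 5 of the 18 at an unadjusted p under 0.05, which 13.4% of all genes tested reach, and the lowest adjusted p at 0.201 (limma). Their median was -0.06 in input and -0.24 in TE, against 0.00 and -0.01 for all genes. Among the most abundant, the cytosolic chaperone gene Hsp90ab1 had an RPF difference of -0.07 (adjusted p = 0.886, limma), the mitochondrial chaperonin gene Hspd1 -0.34 (adjusted p = 0.336) and the HSP90 cochaperone gene Fkbp4 0.09 (adjusted p = 0.899). Hspa8, the constitutive HSC70, is copied in 95.5% of its coding windows, much as Rbm3 is, and its RPF values were 51.4, 74.2 and 59.3 in WT and 66.0, 71.9 and 49.7 in KO. These lie far below its input of 700.7, 1152 and 915.2 in WT and 649.2, 1297 and 671.6 in KO. It is a single gene picked after its values were seen, and what copying does to the RPF of either gene was not tested.

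Transcripts reported as bound or controlled by RBM3 or CIRBP did not pass the test either. Of 6 measured, 4 had lower and 2 higher fitted RPF values in KO, with a median of -0.03. Clock, whose mRNA CIRBP binds, had an input difference of -0.15 (SE 0.15) and an RPF difference of 0.24 (SE 0.18, adjusted p = 0.581, limma). Txn1, the thioredoxin, had -0.24 in RPF (SE 0.13, adjusted p = 0.446), Rtn3, a reticulon of the endoplasmic reticulum reported as an RBM3 target in neurons, -0.03 (SE 0.14, adjusted p = 0.953) and Vegfa, the angiogenic growth factor, 0.26 (SE 0.18, adjusted p = 0.552).

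Of the 17 SR splicing factors, CLK kinases and hnRNP H proteins, 7 had higher and 10 lower RPF values in KO, with a median of -0.08. Srsf1 had -0.17 (SE 0.15), Srsf9 0.39 (SE 0.18), Srsf6 0.12 (SE 0.18) and Srsf2 0.69 (SE 0.31) in RPF, all splicing activators of the SR family, with adjusted p from 0.356 to 0.822 (limma). Of 26 relatives with RNA recognition motifs, 11 were higher and 15 lower, with a median of -0.05. Hnrnpab, Hnrnpl and Hnrnpa2b1, which package nuclear mRNA, and Pabpc1, the poly(A)-binding protein, had RPF differences of -0.22, 0.10, -0.08 and 0.27 (adjusted p from 0.411 to 0.935). Of 15 clock genes 8 were higher and 7 lower, with a median of 0.09, and Nfil3, Nr1d1, Rora and Bhlhe40, transcription factors of the clock and its output, had RPF differences of 0.09, -0.36, 0.15 and 0.18 (adjusted p from 0.716 to 0.930).

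Across the 12 libraries, after the mean of each assay was taken out, Rbm3 was most like Avl9 (Pearson r = 0.907), Nfib (0.900), Wdfy2 (0.887), Birc3 (0.884) and Matr3 (0.873). Cirbp was most like Atg2a (0.946), Oit3 (0.923), Uap1l1 (0.889), Coq8a (0.888) and Notch1 (0.885). The r between Rbm3 and Cirbp was -0.60. It is taken over the same values by which Rbm3 was chosen, so it describes them and tests no relation between the genes. These values describe 12 libraries from 6 mice, in which input and RPF of a mouse share a liver and littermates share a litter, and the most alike of 8994 genes were taken.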

How the data were processed

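Livers of 3 WT and 3 KO mice were lysed in cycloheximide, digested with micrococcal nuclease for footprints, and sequenced as input and RPF. The authors aligned input reads to mm10 with STAR 2.7.3a and deposited featureCounts gene counts (version 1.6.0 per the labels). RPF reads of 25 to 34 nt were handled in RiboToolkit with up to 2 mismatches and 1 mapping place; the feature they were counted over is not given in the sources used here. The deposited signal table holds reads divided by size factors, whose columns are whole multiples of what 1 read is worth (100% of values, tolerance 0.01), so whole reads were recovered. Its columns of the authors' fold changes and p-values were not used. Coding sequences came from GENCODE and were cut into 28-nt windows matched exactly to both strands of the mm10 genome.

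Members and lists were chosen with earlier results of these data known. Named are both members, the 4 most abundant members of each list per exon length with any called member, and the 5 most alike genes; litter examples and Hspa8 copying were chosen after their values were seen. Input counts were tested with edgeR 4.0.16 (quasi-likelihood, R 4.3.3) and RPF and TE values with limma 3.58.1 on log2(value + 1), which understates changes of low genes, for genes averaging 10 or more in input and in RPF; p-values were Benjamini-Hochberg adjusted over all genes, threshold 0.05. DESeq2 1.42.0 was an alternative. Each test was run on simulated data, in which every gene had the same scatter and litters did not differ. These data do not tell how the tests behave for a gene with as few reads as Rbm3. WT and KO mice with the same number in the sample titles were treated as littermates, so every statement on litters rests on these numbers. Deviations of mice paired in this way correlated at r = 0.0816 to 0.127 in input and 0.144 to 0.242 in RPF. One read was worth 0.658 to 1.83 normalized reads in input and 0.516 to 0.956 in RPF, so a low gene's precision is that of its whole reads.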

Additional observations from a re-analysis of the deposited data

How the results depend on the processing

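For Rbm3, no alternative turned a direction: the input difference was 0.15 to 1.01, the RPF difference -2.49 to -1.49 and the TE difference -3.10 to -1.93 on the log2 scale, the smallest RPF and TE values with a pseudocount of 5. Without WT mouse 1 or 2 Rbm3 falls under the read minimum, so its values without them (RPF -2.05 and -2.21, TE -2.96 and -2.92) were fitted with no minimum, an alternative added after the data were seen, as was edgeR on whole reads. Neither gene is left when averages of 50 or more are required. For Cirbp, the RPF difference (0.43 to 0.82, replicate block included) and the TE difference (0.32 to 0.80) kept their direction and did not pass the test under any alternative; the input difference ran from -0.18 to 0.28 when 1 mouse was left out, turning sign without WT mouse 2 (-0.18), KO mouse 1 (-0.08) or KO mouse 3 (-0.10). The count of genes called over the whole table depended on the fit. In input it was 0 in the edgeR fit, 1 with DESeq2, 30 with no filter on low counts, 2 with the replicate block and 0 to 21 with 1 mouse left out, 21 being without KO mouse 2. In RPF it was 44 in the limma fit, 293 with the replicate block, 12 with the GC trend removed, 82 with the replicate block and the GC trend removed, 66 with edgeR on whole reads, 410 with edgeR on whole reads and the replicate block, and 0 to 226 with 1 mouse left out, 0 without KO mouse 2 and 226 without KO mouse 1. In TE it was 0 throughout (edgeR on whole reads also 0). The replicate block changed no call on Cirbp. Depth limits both genes: 6 to 62 input reads and 3 to 30 RPF reads stand behind each Rbm3 value, and 16 to 59 and 61 to 149 behind each Cirbp value.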
